A study of Mus musculus with 6 samples.

Results

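The 9 probe sets with the lowest difference between aortas of mice lacking both Adora1 and Apoe and aortas of mice lacking Apoe alone were described across the arrays of the study. They were chosen by their measured values: each has a group mean in the double knockout (DKO) more than 2 log2 units below that of the Apoe knockout (ApoE-KO), and no other of the 25254 probe sets does. A probe set is a group of short probes on the array that are summarised as 1 value. The platform annotation used here names no gene for any of the 9, so they are called by their identifiers, which are 10513420, 10513428, 10513437, 10513455, 10513467, 10513472, 10513497, 10513504 and 10513512.

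RNA of 6 aortas was measured on 1 Affymetrix whole-transcript array each, 3 from ApoE-KO mice (apoe-/-) and 3 from DKO mice (apoe-/- adora1-/-). All mice were of the C57BL/6 strain and 20 weeks old, and both groups lacked Apoe, so by their labels they differ by the loss of Adora1, the adenosine A1 receptor gene. No probe set naming Adora1 was analysed here, so the labels were not checked against it. The series text calls the comparison group Adora1 knockouts, but title, source and genotype of its samples all give apoe-/-, which was followed here. No wild-type and no Adora1-only sample was among the 6, the labels give neither the sex of the mice nor whether aortas were pooled, and p-values measure only the spread between these samples. Array medians lay between 8.01 and 8.02 (log2 intensity), and correlations between arrays ran from 0.983 to 0.995 over all probe sets. All 10 artery wall smooth muscle markers of a fixed list were measured, with a median difference between the groups of 0.06 (log2) and summed levels from 15.98 to 16.21 (log2) over the 6 arrays.

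The 9 probe sets probably belong to the major urinary protein (Mup) gene cluster, which is said here only as likely. Their identifiers follow each other with no other identifier of the table between them. The nearest named probe sets below and above them are those of Slc46a2, a thymic solute carrier, and Mup5, and further up come Mup3, Mup21 and the zinc finger gene Zfp37. In a RefSeq table of assembly GRCm38.p6, which serves here only for gene order, 46 entries lie between Slc46a2 and Zfp37 on chromosome 4. Of these, 22 are numbered Mup genes and 22 carry Mup pseudogene names, and 18 of the Mup genes stand between Slc46a2 and Mup5. Of 21474 consecutive pairs of probe sets naming a placed gene, 94.4% lay on the same chromosome. Of 19685 runs of 3 such consecutive identifiers on 1 chromosome, 91.2% were in positional order, up or down. The submitters' notes name another build, mm9, so no position is given for the probe sets.

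Major urinary proteins are small lipocalins, barrel-shaped proteins that carry pheromones and other hydrophobic ligands, and male mice excrete them in large amounts in urine. Most are made in the liver under the control of growth hormone, androgens, glucocorticoids and thyroid hormone. Some are also made in exocrine glands and in fat, and MUP1 has been linked to glucose and lipid metabolism. The copies of the central part of the cluster are very alike in sequence, and signals of probes for such copies cannot be taken apart with certainty.

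Since the annotation ties no sequence to the 9 probe sets, the likeness of the copies is shown on the Mup promoters in RefSeq (GRCm38.p6). A window of 250 bases before to 50 after the annotated start was held for 14 of the 22 Mup genes. The letters TATATAA, searched on both strands, stood in 13 of the 14 windows, against 3.24% of all 32851 windows of that length. In 9 genes the 16 bases before these letters and the 10 after them also lay upstream of the start, which gives a stretch of 33 bases. Among the 9 genes it had 5 distinct forms, shown here 5′ to 3′ on the gene's strand with TATATAA in capitals.
Mup4, chr4:59960680-59960712, minus strand: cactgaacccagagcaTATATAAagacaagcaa
Mup6, chr4:60003436-60003468, plus strand: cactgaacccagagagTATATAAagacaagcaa
Mup2, chr4:60139867-60139899, minus strand: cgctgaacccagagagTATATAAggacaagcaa
Mup10, chr4:60582169-60582201, minus strand: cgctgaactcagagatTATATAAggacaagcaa
Mup18, chr4:61674106-61674138, minus strand: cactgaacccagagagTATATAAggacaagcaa
The Mup2 form was found letter for letter in 5 genes, which are Mup2, Mup9, Mup15, Mup17 and Mup19. Any 2 of the 9 genes shared 28 to 33 of the 33 bases, among them the letters TATATAA, which are shared by construction. A match of these letters is a description, and nothing here measured the use of these promoters or the likeness of the transcripts.

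The 9 probe sets were lower in every DKO aorta than in any ApoE-KO aorta. Their mean level was 9.30 ± 0.54 (log2, SD, n = 3) in ApoE-KO and 5.97 ± 1.27 (log2, SD, n = 3) in DKO. The difference of -3.33 ± 1.27 (log2, SD over 3 pairs of equal replicate number) goes with levels 8.8 to 11.8-fold higher in ApoE-KO for the single members. The groups did not overlap in 9 of 9 members, and over all probe sets 6.47% were lower and 5.55% higher in DKO without overlap. The members were chosen by this very contrast, so these values carry no test and nothing is read from that count. In bulk tissue, fewer cells of a type and less RNA per cell cannot be told apart.

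The mean of the 9 was 8.73, 9.82 and 9.34 (log2) in ApoE-KO replicates 1, 2 and 3, and 5.08, 5.42 and 7.42 in DKO replicates 1, 2 and 3. DKO replicate 3 thus stood 2.18 above the mean of the other DKO aortas, which differed from each other by 0.34. Against the ApoE-KO mean, the 9 were 18.7-fold lower in DKO replicate 1, 14.8-fold lower in DKO replicate 2 and 3.7-fold lower in DKO replicate 3. By replicate number, the differences were -3.66, -4.40 and -1.92 (log2). Without DKO replicate 3 the mean difference was -4.05 (log2), a level 16.6-fold higher in ApoE-KO. Leaving out any other array gave differences from -2.88 to -3.61.

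**Figure D1:**
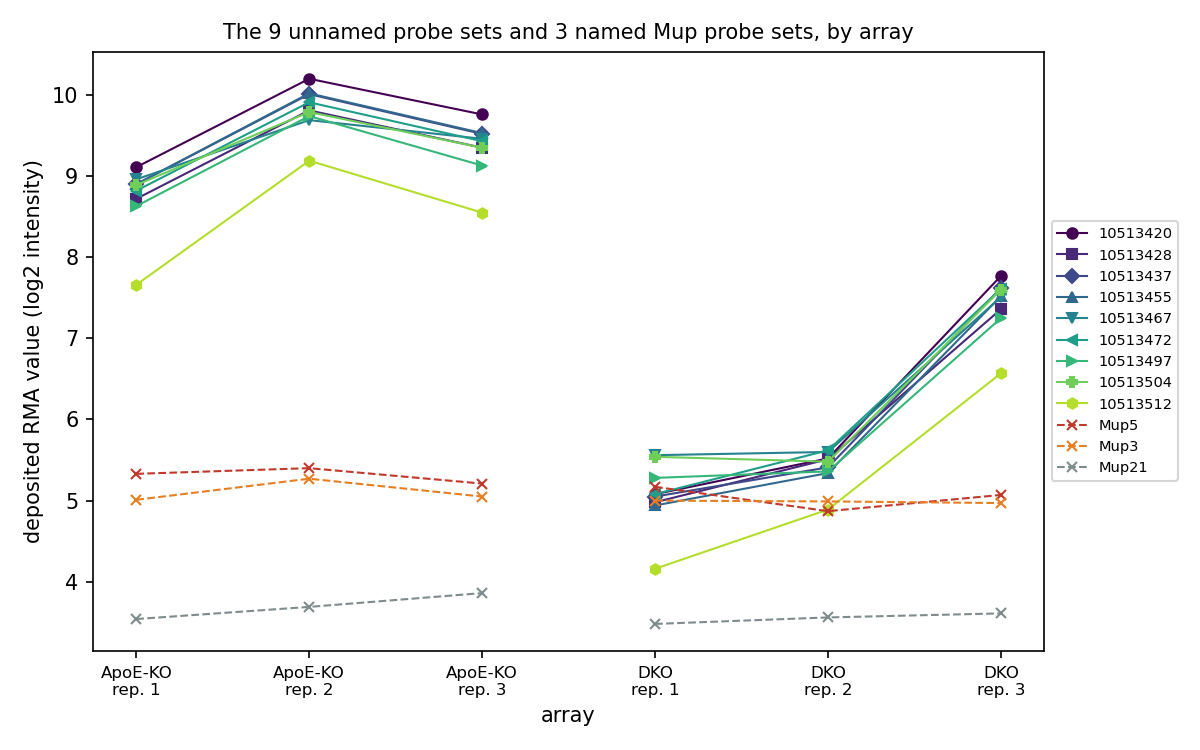
Deposited RMA values (log2 intensity, vertical axis) of the 9 unnamed probe sets and of the 3 probe sets naming Mup5, Mup3 and Mup21, in each of the 6 arrays (horizontal axis); lines join the arrays of a group. The 9 have a mean of 8.73 to 9.82 in the ApoE-KO arrays, 5.08 and 5.42 in DKO replicates 1 and 2 and 7.42 in DKO replicate 3, while the dashed lines of the named Mup probe sets are nearly level.

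Among the members, 10513420 had the largest difference. It read 9.11, 10.20 and 9.76 (log2) in ApoE-KO replicates 1, 2 and 3 against 5.08, 5.52 and 7.77 in the DKO replicates, a difference of -3.56. Its DKO values lay at least 1.34 below the lowest ApoE-KO value, with DKO replicate 3 nearest to that group. The probe set 10513455 was almost its copy in shape, at 8.90, 10.02 and 9.53 in ApoE-KO against 4.94, 5.34 and 7.52 in DKO (-3.55).

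The smallest difference was that of 10513504, with 8.89, 9.79 and 9.35 (log2) in ApoE-KO against 5.54, 5.48 and 7.60 in DKO (-3.14). It was the only member in which DKO replicate 2 and not DKO replicate 1 was the lowest array. The probe set 10513467 read 8.96, 9.69 and 9.46 in ApoE-KO against 5.56, 5.60 and 7.51 in DKO (-3.15), with the smallest spread within ApoE-KO (SD 0.37, n = 3). The probe set 10513512, last in identifier order, had the largest spread within ApoE-KO (SD 0.77, n = 3). It read 7.66, 9.19 and 8.55 in ApoE-KO against 4.16, 4.89 and 6.57 in DKO (-3.26), and its groups were the closest of the 9, at 1.09 apart.

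The other 4 members lay between these. The probe set 10513437 read 8.90, 10.01 and 9.52 (log2) in ApoE-KO against 5.05, 5.41 and 7.62 in DKO (-3.45), and 10513428 read 8.72, 9.81 and 9.35 against 4.98, 5.51 and 7.36 (-3.35). In both, ApoE-KO replicate 2 was again the highest array and DKO replicate 1 the lowest. The probe set 10513472 read 8.82, 9.91 and 9.43 in ApoE-KO against 5.08, 5.62 and 7.61 in DKO (-3.28). The probe set 10513497 read 8.63, 9.74 and 9.13 against 5.28, 5.36 and 7.25 (-3.20). Across the 9, the difference for replicate number 3 ran from -2.01 to -1.75, against -4.03 to -3.35 for number 1 and -4.68 to -4.09 for number 2.

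**Figure D2:**
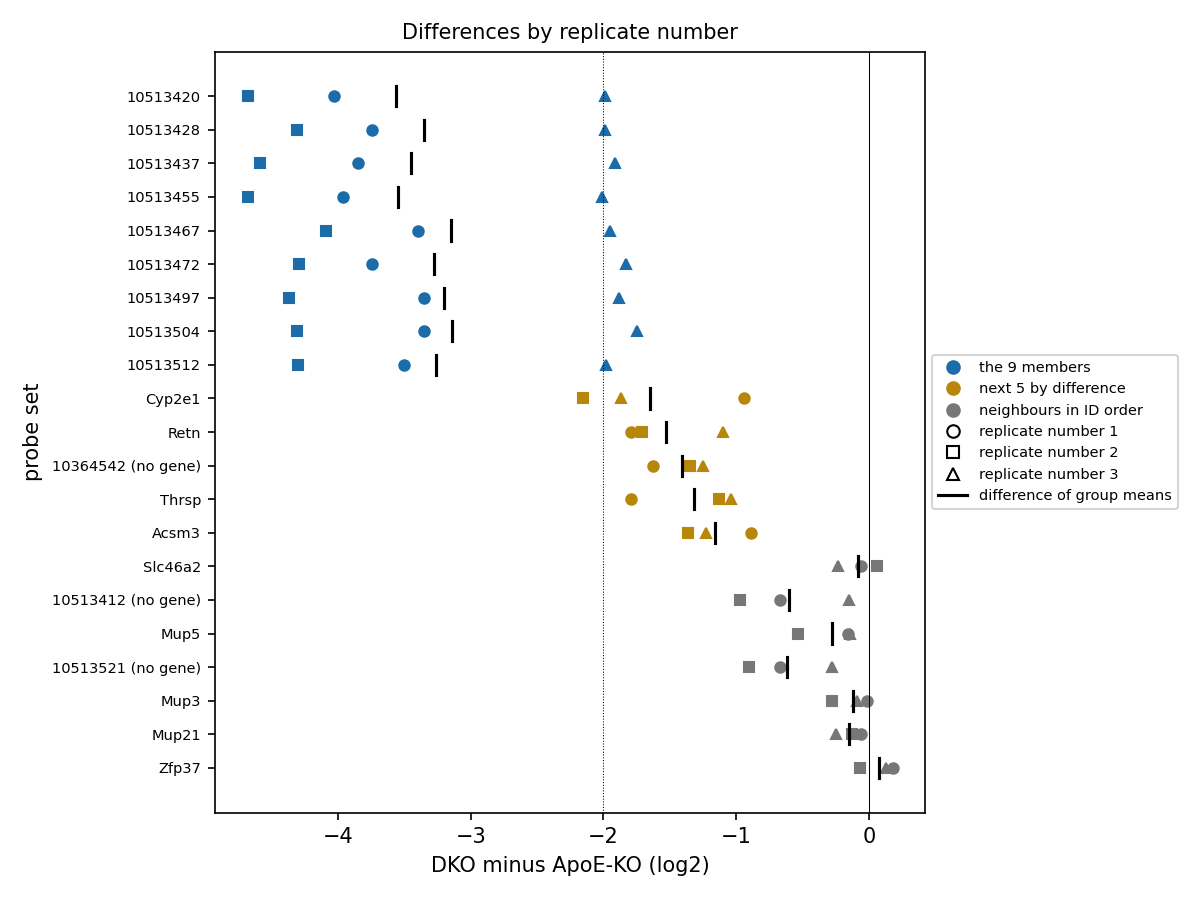
DKO minus ApoE-KO (log2, horizontal axis) for the 9 members, the next 5 probe sets by difference and the neighbours in identifier order; symbols give the difference for each replicate number, bars the difference of group means and the dotted line the threshold of -2. The 9 group differences run from -3.56 to -3.14, while the next probe set, of Cyp2e1, is at -1.65.

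A wide gap separates the members from all other probe sets on the lower side. The weakest member was at -3.14 and the next probe set, of Cyp2e1, a cytochrome P450 of ethanol metabolism, at -1.65, which leaves 1.48 between them. After it came Retn, the adipocyte hormone resistin, at -1.53, the unnamed probe set 10364542 at -1.41, Thrsp, which promotes lipogenesis, at -1.32, and Acsm3, a mitochondrial acyl-CoA synthetase, at -1.16. These values are given as a description of the threshold and carry no test.

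The 9 members had closely matching profiles, also in what the rule did not use. Each profile was centred on its own mean over the 6 arrays, and the distance between 2 profiles was taken as the root mean square of their differences. Over the 36 pairs of members the median distance was 0.21 (log2), from 0.035 between 10513420 and 10513455 to 0.32 between 10513420 and 10513467. The mean profile itself had a root mean square of 1.84. The farthest member, 10513467, was 0.18 from the mean profile. These distances contain the group difference by which the members were chosen, so no distance to other probe sets is read from them.

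The rule used only the difference of group means, and deviations from the group means did not enter it. They come from the same chosen probe sets, so they are a description and no independent support. On these deviations, the median distance between members was 0.17 (log2), the mean profile had a root mean square of 0.80, and the farthest member, 10513512, was 0.18 from it. The nearest other probe set was 0.36 away and names several genes, Ssty2 of the Y chromosome among them. In 9 of 9 members the ApoE-KO arrays stood in the order replicate 2, replicate 3, replicate 1, and in 9 of 9 DKO replicate 3 was the highest of its group. The ApoE-KO order is not particular to the members. Summed levels of white adipose genes had it too, at 15.06, 15.42 and 15.28 (log2) in ApoE-KO replicates 1, 2 and 3. The share of all probe sets in this order was not counted. Correlations between members ran from 0.939 to 1.0 on these deviations, over 6 arrays that share their 2 group means. Members may share probes or transcripts, so they are not 9 independent measurements, although none had values identical to another row of the table. By contrast, 326 rows repeat an earlier one.

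The high level of DKO replicate 3 was looked for in all probe sets. In 72 probe sets DKO replicate 3 was at least 1.5 (log2) above both other DKO arrays. Of these, 63 were also higher in ApoE-KO replicate 3 than in both other ApoE-KO arrays, by at least 0.49, and the remaining 9 were the members. The 63 hold 34 distinct value profiles and include 6 genes of a lung airway list, 3 probe sets of Srsy, a multicopy Y-linked gene, and 14 that name no gene. In the members, DKO replicate 3 was higher by 1.68 to 2.25, while ApoE-KO replicate 3 was 0.23 to 0.64 below the higher of the other ApoE-KO arrays. The limit of 1.5 was chosen after the values were seen.

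**Figure D3:**
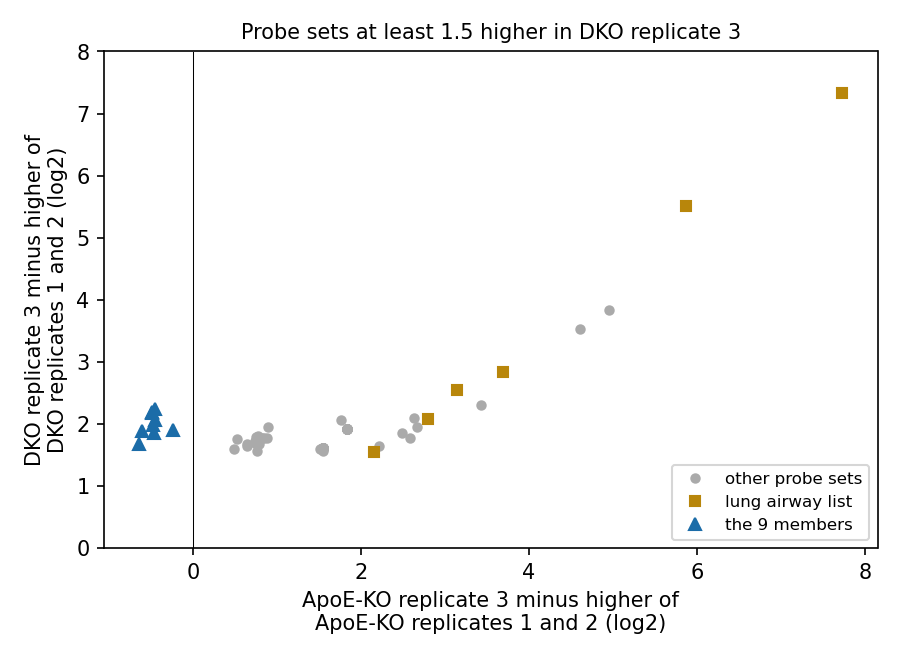
Each point is 1 of the 72 probe sets in which DKO replicate 3 was at least 1.5 (log2) above both other DKO arrays (vertical axis); the horizontal axis gives the same difference for ApoE-KO replicate 3 (log2). The 63 others lie at 0.49 or more on the horizontal axis, and the 9 members lie left of 0.

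Lung transcripts were high in the replicate 3 arrays of both groups. The 10 measured genes of the lung airway list had summed levels of 14.75 (log2) in ApoE-KO replicate 3 and 14.07 in DKO replicate 3, against 10.42 to 10.64 in the other 4 arrays. Sftpa1, a surfactant protein gene, read 10.52 and 9.61 in the replicate 3 arrays and 7.50 to 7.72 elsewhere. In ApoE-KO the mean of the members in replicate 3 lay between the other 2 arrays. The cause of the high level of the members in DKO replicate 3 was not tested. Without both replicate 3 arrays the difference of the members was -4.03 (log2). The lung list's median difference was -0.25, with 9 of 10 genes lower in DKO, beside 50.7% of all probe sets, and 0 passing in either fit. Among its genes were Sftpd (-0.21), a surfactant protein gene, Napsa (-0.21), an aspartic protease gene of alveolar cells, and Hopx (-0.29), a homeodomain gene of alveolar epithelium.

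The named Mup probe sets beside the 9 differed far less. Mup5 read 5.33, 5.40 and 5.21 (log2) in ApoE-KO against 5.17, 4.87 and 5.07 in DKO, a difference of -0.28 (95% interval -0.52 to -0.04; limma, adjusted p = 0.861). Mup3 read 5.01, 5.27 and 5.05 against 5.0, 4.99 and 4.97, a difference of -0.12 (95% interval -0.33 to 0.09; limma, adjusted p = 0.883). The groups of both genes lay next to each other without overlap, 0.04 and 0.01 apart. Mup21 read 3.54, 3.69 and 3.86 against 3.48, 3.56 and 3.61, with overlapping groups and a difference of -0.15 (95% interval -0.41 to 0.11; limma, adjusted p = 0.891). These 3 are the only numbered Mup genes named by a probe set of their own. They read low in ApoE-KO already, from 3.54 to 5.40, where the lowest value of all probe sets was 2.35. Whether a lower level in DKO could have shown there was not tested.

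Both unnamed probe sets nearby, named after their values were seen, differed less than the members, as the rule for the members requires. The probe set 10513412, just below the 9, read 7.23, 7.03 and 6.52 (log2) in ApoE-KO against 6.55, 6.06 and 6.37 in DKO (-0.60; limma, adjusted p = 0.861). It did not share the order of the members, since DKO replicate 3 was not the highest of its group. The probe set 10513521, between Mup5 and Mup3, read 4.96, 5.23 and 4.67 against 4.30, 4.33 and 4.38 (-0.62; limma, adjusted p = 0.839). Slc46a2 and Zfp37, the genes around the cluster, had differences of -0.08 and 0.08.

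Outside the 9, the lipocalin family was measured in 25 of 46 listed genes, of which 19 were lower and 6 higher in DKO, with a median difference of -0.07 (log2). Over all probe sets the median was -0.002 and 50.7% were lower in DKO, which also stands beside the counts of the lists below. Limma without pairing passed 0 of 25254 probe sets (0% in either direction; 1419 at an unadjusted p under 0.05), and 8 passed when DKO replicate 3 was left out. How many of these 8 are members is not given here, and nothing is read from them. With the replicate number as a block 20 passed lower (0.0792%, with 3 of the members, from which nothing is read) and 24 higher (0.095%). In the family 1 gene fell with the block, Orm1, an acute-phase plasma protein gene, by 0.97 (log2; limma with the block, adjusted p = 0.0169), 24 did not pass, and without the block 0 passed. Its levels were 8.05, 8.77 and 8.40 in ApoE-KO against 6.99, 7.76 and 7.56 in DKO.

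Of the other plasma lipocalins, Orm3, an acute-phase protein gene, had a difference of -0.39 and Orm2, its relative, of -0.20, and Ambp, the precursor of alpha-1-microglobulin, of -0.28. Rbp4, which carries retinol in plasma and is also secreted by fat, was at 0.35 (limma with the block, adjusted p = 0.0545), with 11.70, 11.53 and 11.57 in ApoE-KO against 12.02, 11.87 and 11.95 in DKO. Its groups did not overlap, and it went the other way from the members. Apod, the apolipoprotein D gene, was at -0.31, Apom, the apolipoprotein M gene, at 0.06, Ptgds, the prostaglandin D synthase gene, at 0.07 and C8g, a complement subunit gene, at 0.01. Lcn2, an iron-sequestering protein of inflammation, was at -0.33 through DKO replicate 1, which read 7.03 against 8.18 to 9.0 in the other arrays. Without that array Lcn2 was at 0.31 and Apod at 0.06.

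The remaining family members are other numbered lipocalins, several of them of the epididymis, and odorant-binding proteins, and none passed in either fit. Lcn5 was at -0.21, Lcn12 at -0.15, Lcn9 at -0.07, Lcn8, Lcn10 and Lcn11 at -0.06 each, Lcn4 at -0.06, Lcn6 at 0.03 and Lcn3 at 0.15 (log2). Among the odorant-binding proteins, Obp2a was at -0.11, Obp1a at -0.06 and Obp2b at -0.02.

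Genes of the liver, the main site of Mup RNA, were read from a fixed list. The liver list had a median difference of -0.11 (log2), with 24 of 26 measured genes lower in DKO, beside 50.7% of all probe sets. Its summed levels ran from 13.41 to 14.29 in ApoE-KO and from 12.75 to 13.59 in DKO. Car3, Trf, Cyp2e1 and Pck1, the 4 brightest of the list, held 68.5% to 86.4% of this sum. These 4 were lower in DKO, at -0.90, -0.42, -1.65 and -0.21. The other 22 genes summed to 11.10, 11.41 and 11.24 in ApoE-KO against 11.08, 11.16 and 11.17 in DKO, with overlapping groups. Trf and Pck1 are named here after their values were seen. Whether liver RNA had a part in the difference of the members was not tested. Alb, the albumin gene, read 5.58, 5.86 and 6.01 in ApoE-KO against 5.58, 5.72 and 6.18 in DKO, so its groups overlapped and its difference was 0.01. Alb is singled out as the defining liver gene, outside the naming rule. The members of the list with the smallest p were Cyp2e1, Car3, the carbonic anhydrase of adipocytes and slow muscle, Apoc3, an apolipoprotein of triglyceride-rich particles (-0.17), and Fabp1, the liver fatty acid binding protein (-0.34). Car3 fell by 0.90 with the block (limma, adjusted p = 0.0226), the only one of the 26 to pass, and without the block 0 passed. Over all probe sets 0.0792% fell with the block. Cyp2e1 read 9.97, 12.11 and 11.54 in ApoE-KO against 9.03, 9.96 and 9.67 in DKO (limma with the block, adjusted p = 0.0503).

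White adipose tissue genes, whose source in these aortas was not tested, were lower in DKO in 21 of 23 measured genes, with a median difference of -0.33 (log2). Over all probe sets 50.7% were lower. Of the 23 genes, 4 fell with the block, beside 0.0792% of all probe sets, 19 did not pass, and without the block 0 passed. Leaving out DKO replicate 1 moved the median to -0.21, and leaving out DKO replicate 2 to -0.54. Their summed level was 15.06, 15.42 and 15.28 in ApoE-KO against 14.47, 15.19 and 14.84 in DKO. Bright genes such as Scd1, a fatty acid desaturase gene (12.75 to 13.52), weigh most in this sum. In DKO replicate 2, which was low in the members, the sum lay within the ApoE-KO range. In that array Retn (9.35), Thrsp (8.72) and Fasn (11.31) lay below every ApoE-KO array. Scd1 (13.52) and the lipid droplet gene Plin1 (10.60), named after their values were seen, did not. The list genes with the smallest p were Retn and Thrsp, which fell (limma with the block, adjusted p = 0.0226 and 0.0467), and the fatty acid synthesis genes Fasn (-1.13) and Acaca (-0.57), which did not pass (adjusted p = 0.0721 and 0.0545). The other 2 that fell, named after their values were seen, were the lipid droplet gene Cidec (-0.74) and the galectin gene Lgals12 (-0.68), each with an adjusted p of 0.0467 (limma with the block). The 2 list genes higher in DKO, also named after their values were seen, were the leptin gene Lep (0.36) and the neuronatin gene Nnat (0.66). The part of fat in the difference of the members was not tested.

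Brown adipose tissue genes had a median difference of -0.13 (log2), with 7 of 11 lower in DKO and 0 passing in either fit. Among them were Elovl3, a fatty acid elongase (-0.76), Otop1, a proton channel (-0.28), Slc27a2, a very long-chain acyl-CoA synthetase (-0.35), and Fabp3, a fatty acid binding protein (0.22). Salivary, lacrimal and sweat gland genes, of other tissues that make Mup proteins, had a median of -0.08, with 7 of 10 lower and 0 passing in either fit. Their summed levels ran from 10.01 to 10.28 over the 6 arrays. The gland genes with the smallest p were Krt14, a basal keratin (-0.20), Amy1, salivary amylase (0.20), Car6, a secreted carbonic anhydrase (-0.13), and Dcpp1, a demilune cell protein (-0.13).

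Growth hormone acts on Mup genes through the transcription factor STAT5 in liver. The 14 measured genes of this pathway had a median difference of -0.05 (log2), with 8 lower and 6 higher in DKO, and of -0.01 without ApoE-KO replicate 2 or -0.02 without DKO replicate 1. The receptor gene Ghr, named outside the rule for its role, read 10.71 to 10.97 in ApoE-KO and 10.78 to 10.92 in DKO, with a difference of 0.00. Among feedback and target genes, Igfbp3, a carrier of insulin-like growth factors, fell by 0.56 with the block (limma, adjusted p = 0.0467). The other 13 did not pass, and over all probe sets 0.0792% fell with the block. Cish, a STAT5-induced inhibitor, was at -0.59, with 8.12, 8.78 and 8.26 in ApoE-KO against 7.52, 7.89 and 7.98 in DKO. The cytokine signalling inhibitor gene Socs3 was at -0.46 and Igfals, which stabilises circulating IGF complexes, at -0.32. These 4 genes, named by smallest p, did not overlap between the groups, beside 6.47% of all probe sets lower in DKO without overlap. Nothing is read from that count, and without the block 0 passed. Of the others, Bcl6 was at 0.40, Socs1 at 0.02, Socs2 at -0.12 and Igf1 at -0.18, with overlapping groups. They were named after their values were seen.

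Genes of steroid, thyroid and glucocorticoid signalling had a median difference of -0.06 (log2), with 8 of 13 lower in DKO. Beside Thrsp, the only gene of the list that fell with the block, Fkbp5, a glucocorticoid-induced chaperone, was at -0.45, with 9.25, 9.30 and 9.29 in ApoE-KO against 8.59, 8.78 and 9.13 in DKO. The glucocorticoid-responsive genes Tsc22d3, Per1 and Sgk1, named after their values were seen, were at -0.04, -0.13 and 0.08, with overlapping groups. The glucocorticoid receptor gene Nr3c1 was at 0.14 and Klf9, a hormone-induced transcription factor, at -0.14. The remaining 12 genes did not pass with the block, and 0 passed without it. Over all probe sets 0.0792% fell with the block.

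Mup levels are higher in males than in females in liver, so sex-linked genes were read in each array. Of the 7 measured, 4 were lower and 3 higher in DKO, with a median difference of -0.10 (log2) and 0 passing in either fit, and the median was 0.01 without ApoE-KO replicate 3. Xist, the RNA of the inactive X chromosome, ran from 6.19 to 6.67 over the 6 arrays, and the Y-linked gene Eif2s3y from 8.95 to 9.74. Eif2s3y had the largest difference of the list, at -0.33 (limma, adjusted p = 0.862), with groups 0.02 apart. The Y-linked genes Usp9y and Zfy2 were at -0.16 and -0.20. Groups of Eif2s3y and Zfy2 did not overlap, beside 6.47% of all probe sets lower in DKO without overlap. The Y-linked genes Kdm5d, Uty and Zfy1, named after their values were seen, were at 0.06, 0.04 and 0.08. Kdm5d read 8.59 to 8.83 and Uty 8.47 to 8.83 over the 6 arrays. The list holds Xist beside Y-linked genes, so its median does not tell the sex of the mice.

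**Figure D4:**
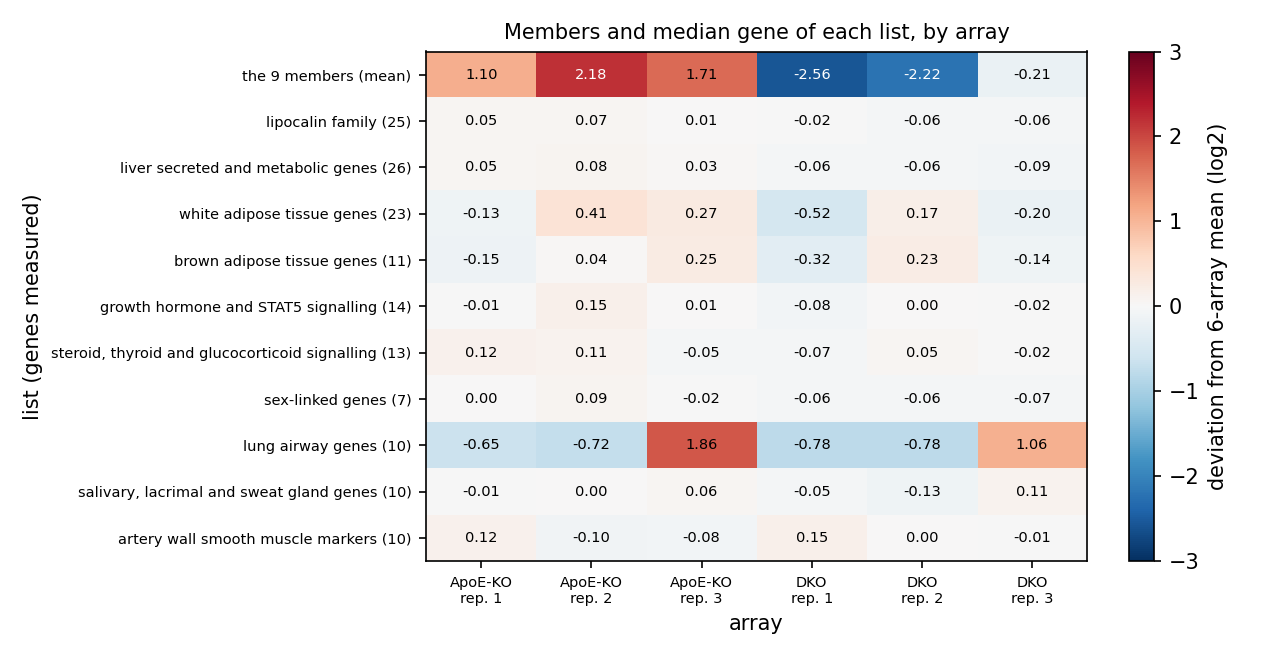
Deviation from the 6-array mean (log2, colour and printed value) of the mean of the 9 members and of the median gene of each fixed list, with the number of genes measured, in each array. The member row spans the widest range, the lung row is high in both replicate 3 arrays, and white adipose tissue genes have their lowest median in DKO replicate 1.

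The genes whose pattern was most like that of the members were taken from 239 probe sets naming 1 gene with an SD over the arrays of at least 0.5. Likeness was Pearson's r to the mean of the 9 over the 6 arrays, a description with no p, since the arrays fall into 2 groups and the members were chosen by the difference between them. The highest was Tmem100, a membrane protein gene of artery endothelium, with r = 0.96. It read 9.57, 10.28 and 10.24 (log2) in ApoE-KO against 8.92, 9.02 and 9.50 in DKO (-0.89; limma with the block, adjusted p = 0.0517). As in the members, DKO replicate 3 was its highest DKO array, and on deviations from the group means its r was 0.85.

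Retn followed with r = 0.93, reading 10.69, 11.06 and 10.46 in ApoE-KO against 8.90, 9.35 and 9.36 in DKO, with DKO replicates 2 and 3 within 0.01 of each other. Next were Gria4, a glutamate receptor subunit (0.91), Mmp3, the matrix protease stromelysin (0.91), Mmrn1, a matrix protein of lymphatic vessels (0.90), Sfrp4, a secreted Wnt antagonist (0.89), Orm1 (0.88) and Elovl3 (0.86). Of these 8 genes, Retn, Mmp3 and Orm1 fell with the block (limma, adjusted p = 0.0226, 0.0166 and 0.0169), beside 0.0792% of all probe sets. The 8 were ranked by a pattern that contains the group difference, so nothing is read from that count or from their p. The largest difference among the 8 was that of Retn, at -1.53, and the others ran from -0.98 to -0.76. On deviations from the group means r ran from 0.48 to 0.85.

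The opposite pattern was led by Kcnj15, an inward-rectifier potassium channel gene, with r = -0.96. It read 8.65, 7.98 and 8.35 (log2) in ApoE-KO against 10.32, 9.66 and 9.54 in DKO and rose by 1.52 with the block (limma, adjusted p = 0.0166). It was lowest in ApoE-KO replicate 2 and highest in DKO replicate 1, where the mean of the members was highest and lowest. The others were 2210407C18Rik, which rose by 1.12 (limma with the block, adjusted p = 0.0169; r = -0.92), Dsp, the desmosome protein desmoplakin (0.68, r = -0.87), and Upk3b, a uroplakin of mesothelium (1.44, r = -0.85). On deviations from the group means r was -0.76 for Kcnj15, -0.72 for Dsp, -0.37 for 2210407C18Rik and -0.16 for Upk3b. These 4 genes were ranked by the same pattern, which contains the group difference. Nothing is therefore read from their passing, beside 0.095% of all probe sets that passed higher.

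**Figure D5:**
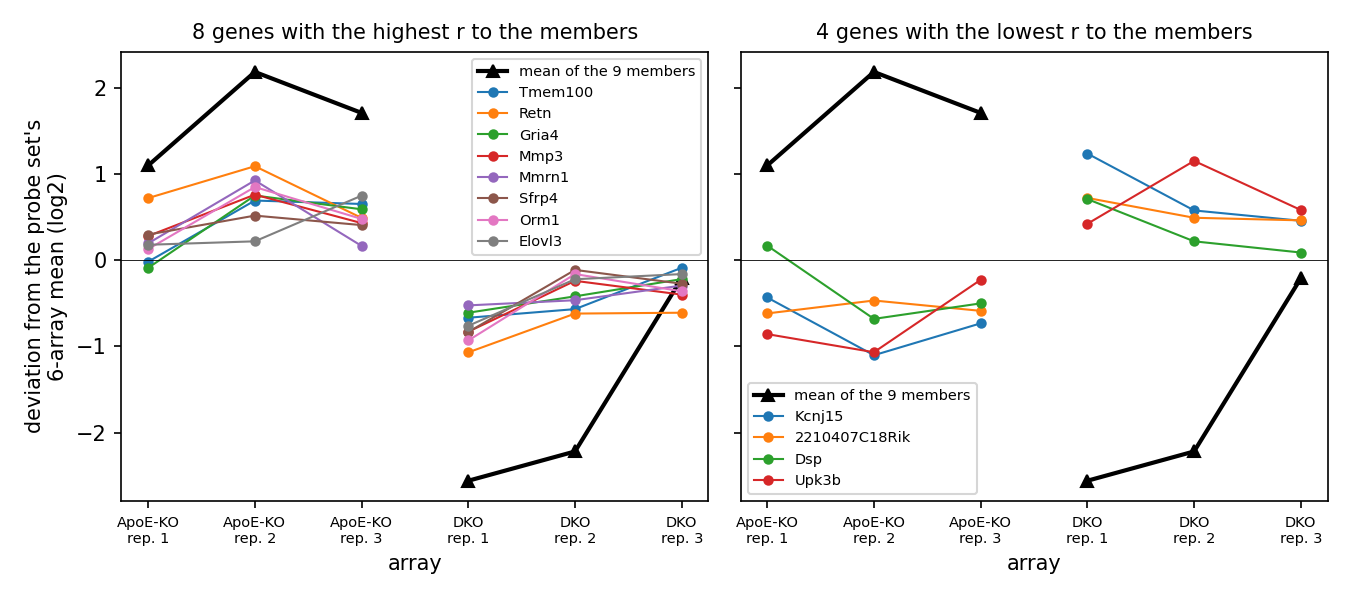
Deviation from each probe set's 6-array mean (log2, vertical axis) in each array (horizontal axis) for the mean of the 9 members (black) and the 8 genes with the highest (left) and 4 with the lowest (right) Pearson's r to it; lines join the arrays of a group. The black line spans more than the coloured ones, and Tmem100, with r = 0.96, reads 9.50 in DKO replicate 3 against 8.92 and 9.02 in the other DKO arrays.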

How the data were processed

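The authors deposited log2 intensities of 25254 probe sets on 6 arrays, and the submitters' processing notes list RMA, Partek and build mm9, with no version; any batch removal is not stated there. The platform annotation names 1 gene for 21496 probe sets, several for 1565 and none for 2193. The members and the 10 gene lists were chosen with earlier results of these data known. Members were described without tests. Other genes, each taken at its brightest probe set (highest mean), were taken from limma 3.58.1 in R 4.3.3 (eBayes with an intensity trend, all probe sets, two-sided, Benjamini-Hochberg, threshold 0.05, no filter), checked on simulated data. The unpaired fit came first because no label names a batch. Deviations from group means of same-numbered arrays correlated at 0.60, 0.50 and 0.64 over probe sets, and others at -0.53 to -0.10. Deviations cancel within each group, so the negative values are no separate support. Numbers were taken as pairs from the positive values, a choice read from the tested data themselves. Blocked values are given where they change a call. The text names members, lipocalin genes, neighbours, the next 5 by difference, up to 4 genes per other list by smallest p, and the 8 most and 4 least like genes. Alb, Ghr, Cidec, Lgals12, Trf, Pck1 and both unnamed probe sets nearby were added after values were seen. So were Bcl6, Socs1, Socs2, Igf1, Kdm5d, Uty, Zfy1, Tsc22d3, Per1, Sgk1, Scd1, Plin1, Lep and Nnat. Only 6 arrays limit the precision; for 3 against 3, the smallest exact permutation p is 0.1.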

Additional observations from a re-analysis of the deposited data

How the results depend on the processing

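The mean difference of the 9 members kept its sign under every alternative run, at -3.32 after renewed quantile normalization or median centring, -2.88 to -4.05 with 1 array left out and -4.03 without both replicate 3 arrays, an alternative chosen after seeing the data. The median distance between members ran from 0.14 to 0.22 with 1 array left out and was 0.17 on deviations from group means. The number of probe sets passing was 0 without pairing, 44 with the replicate block and 0 to 8 with 1 array left out, the 8 without DKO replicate 3. It was 0 above the 40th percentile, after either renewed scaling, without the trend and with the robust option. With 1 array left out, the list medians ran from -0.12 to -0.08 for the lipocalin family, -0.14 to -0.10 for liver, -0.54 to -0.21 for white adipose tissue, -0.06 to -0.01 for growth hormone signalling and -0.14 to 0.01 for sex-linked genes. Without both replicate 3 arrays they were -0.11 for lipocalins, -0.09 for liver, -0.07 for growth hormone signalling and 0.02 for sex-linked genes. Quantile normalization gave -0.09 for liver and -0.06 for sex-linked genes, and averaging a gene's probe sets gave -0.10 for liver.

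Some small differences that no fit passed changed sign, and the cause was not tested. With 1 array left out, Apod ran from -0.59 to 0.06, Lcn2 from -0.68 to 0.31 and Lcn8 from -0.12 to 0.03, all positive only without DKO replicate 1. Lcn4 ran from -0.13 to 0.03 and Obp1a from -0.17 to 0.03. Leaving out ApoE-KO replicate 3 gave the upper ends for Hopx, -0.48 to 0.01, Sftpa1, -1.07 to 0.59, Sftpd, -0.49 to 0.12, and Xist, -0.20 to 0.04. Napsa ran from -0.41 to 0.06, C8g from -0.03 to 0.07 and Obp2b from -0.13 to 0.04. Without both replicate 3 arrays C8g was at -0.07, Obp2b at 0.06 and Xist at 0.02, and quantile normalization gave 0.02 for Obp2b.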
